A study of Mus musculus with 6 samples.

Results

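The Gimap genes (GTPase of the immunity-associated protein family) are a group of related GTPase genes that sit side by side on mouse chromosome 6. The 8 genes described here, Gimap1 and Gimap3 to Gimap9, were taken by name from a table of 55471 gene IDs, and all 8 had a row of their own. As a family they were chosen by their TPM values in induced against uninduced cells, so that comparison is given for them as a description, with no test. RNA was measured by total RNA sequencing in haematopoietic stem cells of mice whose genotype is labelled ETV6-RUNX1, the fusion gene of a childhood B-cell precursor leukaemia. The cells were sorted as Lin- Kit+ Sca1+ CD48- CD150+. One group of 3 libraries came from mice that received doxycycline in food for 2 weeks (induced), and the other 3 libraries came from mice of the same genotype without it (uninduced). Both groups therefore carry the inducible fusion, and no mice given doxycycline without the fusion were analysed here, so induction and doxycycline cannot be told apart. The promoter that drives the fusion, the age of the mice and whether cells of several mice were pooled are not given in the sources used here.

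Gimap proteins bind guanine nucleotides, and most are anchored in internal membranes such as the endoplasmic reticulum, lysosome or mitochondrial outer membrane. They are best known in lymphocytes, where several control survival. Loss of Gimap5 in the mouse depletes peripheral T cells and also impairs haematopoietic stem cells, and Gimap proteins have been linked to the BCL2 family of apoptosis regulators and to the ATG8 proteins of autophagy.

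Values are TPM, a share of each library corrected for transcript length, so levels can be compared between genes. Library depth is unknown on this scale, and no counting interval can be given. The fit across all genes used limma on log2(TPM + 1) for the 13470 genes that averaged 1 TPM or more, and a call is a Benjamini-Hochberg adjusted p under 0.05. Differences are on this log2(TPM + 1) scale, which understates those of genes at low levels. The median difference of these genes, induced minus uninduced, was -0.35 on the log2 scale and 0.0032 after median-of-ratios scaling, which sets the typical gene equal between libraries. On the deposited scale 174 genes were called higher and 1375 lower; with the scaling, the counts were 388 (2.88%) and 418 (3.10%), or 5.98% of the tested genes together. Among the sorting markers, Kit was at 172.5 TPM in uninduced and 95.7 TPM in induced cells, Ly6a (Sca-1) at 14.2 and 37.3 TPM, Slamf1 (CD150) at 13.1 and 7.53 TPM, and Cd48 at 1.24 and 0.330 TPM. The values of a group cannot tell more RNA per cell from more cells of a kind that carry it.

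In induced stem cells 5 of the 8 Gimap genes, Gimap3, Gimap4, Gimap5, Gimap6 and Gimap8, were higher in each induced library than in any uninduced library. Gimap4 stood furthest apart, at about 17.1 times its uninduced mean. Gimap1, Gimap7 and Gimap9 had overlapping groups. Over all tested genes, 33.1% had groups without overlap (4.83% higher and 28.2% lower in induced cells), and since this contrast chose the members, nothing is read from that share. All 8 members passed the expression minimum. In the fit of all genes 4 of them were among the genes called higher and 0 among those called lower, where 11.5% of all tested genes were called, 1.29% higher and 10.2% lower. The count called higher was 2 to 5 in other settings of the fit, and 2 when any single induced library was left out. These member counts restate the values that chose the family, and nothing is read from them. The summed level of the 8 genes was 271.5, 329 and 246 TPM without induction and 556, 543 and 573 TPM with it.

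**Figure D1:**
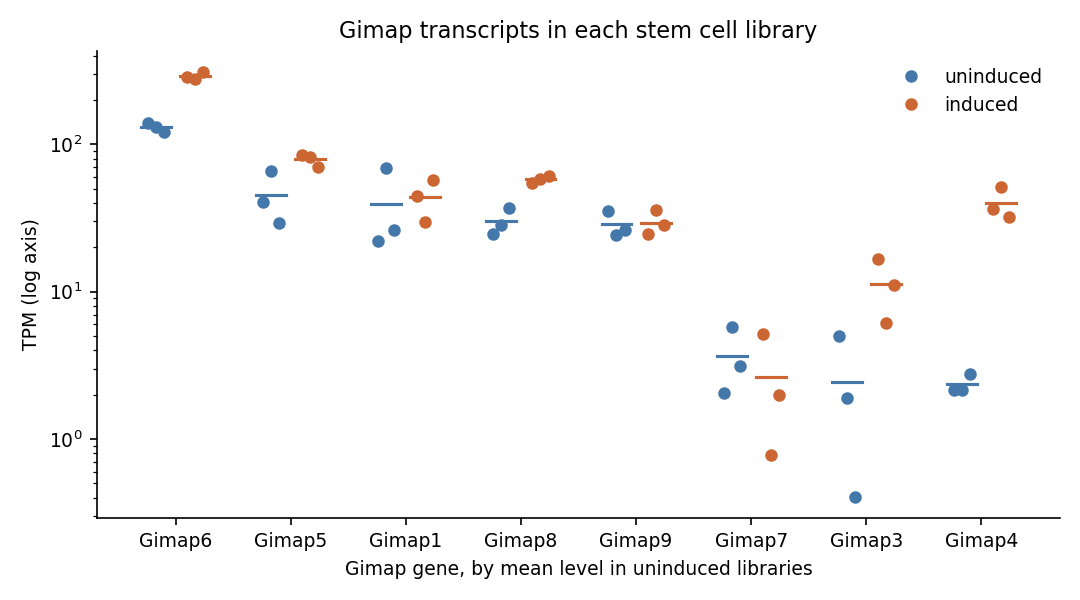
TPM (log axis) of the 8 Gimap genes in each of the 3 uninduced (blue) and 3 induced (orange) libraries; each point is a library and the short line is the group mean. Gimap4 lies between 2.14 and 2.76 TPM in uninduced and between 32.2 and 51.6 TPM in induced libraries, while the groups of Gimap9 lie over each other.

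Gimap6 was the most abundant member. Its protein binds the ATG8-family protein GABARAPL2 and takes part in autophagy. It was at 139.5, 131 and 121 TPM without induction and 288, 279 and 311 TPM with it. The induced libraries lay above all uninduced ones and varied little among themselves, with means of 130.6 ± 9.35 and 292 ± 16.4 TPM (SD, n = 3 each). The difference was 1.16 log2 units (SE 0.14), and it was 1.56 after median-of-ratios scaling. Gimap6 alone held 46.8% ± 6.08 of the family's TPM in uninduced and 52.5% ± 1.53 in induced libraries (SD, n = 3 each), and these shares overlapped.

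Gimap4, whose protein promotes the death of T cells once apoptosis has begun, held a different place in the family in each group. It was at 2.14, 2.16 and 2.76 TPM without induction, the lowest mean of the 8 genes, and at 36.6, 51.6 and 32.2 TPM with it. The groups were far apart: the lowest induced library, at 32.2 TPM, was well above the highest uninduced one, at 2.76 TPM. The means were 2.35 ± 0.352 and 40.1 ± 10.1 TPM (SD, n = 3 each), a difference of 3.59 log2 units (SE 0.28), or 3.92 when scaled by median of ratios. Of the 13470 tested genes, 11 had a difference at least as high, Gimap4 included. Its share of the family's TPM was 0.855% ± 0.240 in uninduced and 7.24% ± 2.02 in induced libraries (SD, n = 3 each).

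Gimap8 encodes the longest protein of the family, with several GTPase domains in a row; its coding sequence has 2064 bases, where the other members have 873 to 984. It was at 24.6, 28.5 and 37.1 TPM without induction and 55.0, 57.9 and 61.0 TPM with it. The induced libraries were close together and all above the uninduced ones. The difference was 0.94 log2 units (SE 0.20), and 1.34 after median-of-ratios scaling.

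Gimap5, needed for lymphocyte survival and found on lysosomes, was at 40.7, 65.7 and 29.4 TPM without induction and 85.3, 82.3 and 70.5 TPM with it. The groups did not overlap, but uninduced replicate 2 was close to induced replicate 3. The difference was 0.87 log2 units (SE 0.27), and 1.27 with median-of-ratios scaling. Gimap3 is a close relative of Gimap5 that was found to influence which mitochondrial DNA is kept in leukocytes. It was at 4.98, 1.90 and 0.406 TPM without induction and 16.6, 6.17 and 11.2 TPM with it, a difference of 1.99 log2 units (SE 0.54), or 2.305 when scaled by median of ratios. Its groups lay close, with the highest uninduced library at 4.98 and the lowest induced one at 6.17 TPM.

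Gimap3 and Gimap5 are alike enough that a read can fall where no base tells them apart. Their coding sequences were identical at 90.4% of aligned bases, while the other 27 pairs of members lay between 55.7% and 66.6%. The longest stretch that both transcripts share without a difference has 140 bases, longer than a sequencing read of 100 bases. It is shown with 20 bases on each side (GENCODE M21 transcripts, GRCm38), in coding exons of Gimap3 (chr6:48765661-48765840, minus strand) and Gimap5 (chr6:48752664-48752843, plus strand), and capitals mark the 3 bases that differ.
Gimap3: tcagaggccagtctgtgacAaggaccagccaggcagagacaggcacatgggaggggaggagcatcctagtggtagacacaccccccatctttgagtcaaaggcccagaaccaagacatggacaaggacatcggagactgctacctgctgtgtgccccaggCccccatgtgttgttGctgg
Gimap5: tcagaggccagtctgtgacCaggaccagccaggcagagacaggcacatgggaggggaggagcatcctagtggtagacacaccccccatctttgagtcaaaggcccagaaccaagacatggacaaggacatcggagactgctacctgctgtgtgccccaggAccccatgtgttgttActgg
Of all stretches of 100 bases in the longest-coding Gimap3 transcript, 2.00% occur in another gene, and for stretches of 50 bases 9.83% do. For Gimap5 these shares are 5.18% and 15.1%, and 2.97% and 5.51% of its stretches occur in Gm28053, an overlapping gene described below. For Gimap1 they are 7.1% and 12.8%, with 7.1% and 10.3% occurring in Gm28053. Gimap4, Gimap6, Gimap8 and Gimap9 share none at either length. How the authors treated reads with several matches is not given in the sources used here. The split between Gimap3 and Gimap5 is therefore uncertain, and these shares, which count other genes too, give no size for it.

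The other 3 members showed no separation. Gimap1, required for the development and upkeep of mature B and T cells, was at 22.2, 69.4 and 26.1 TPM without induction and 44.8, 29.7 and 57.5 TPM with it, and uninduced replicate 2 was the highest of all 6. The difference was 0.30 log2 units (SE 0.40), and -0.0068 without uninduced replicate 1 against 0.79 without uninduced replicate 2. Scaling by median of ratios moved it to 0.69. Gimap9 was at 35.3, 24.3 and 26.2 TPM without induction and 24.6, 35.6 and 28.2 TPM with it. These values covered the same range in both groups, with a difference of 0.04 log2 units (SE 0.23). It was 0.44 after median-of-ratios scaling and between -0.099 and 0.20 when single libraries were left out. Gimap7, whose GTPase activity is stimulated when it pairs with itself or a relative, was the least abundant member in induced cells. It was at 2.06, 5.78 and 3.13 TPM without induction and 5.13, 0.782 and 1.98 TPM with it, with a difference of -0.47 log2 units (SE 0.52). The size of this difference rested on single libraries, at -0.94 without induced replicate 1 and -0.045 without induced replicate 2, and it was -0.18 when scaled by median of ratios.

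**Figure D2:**
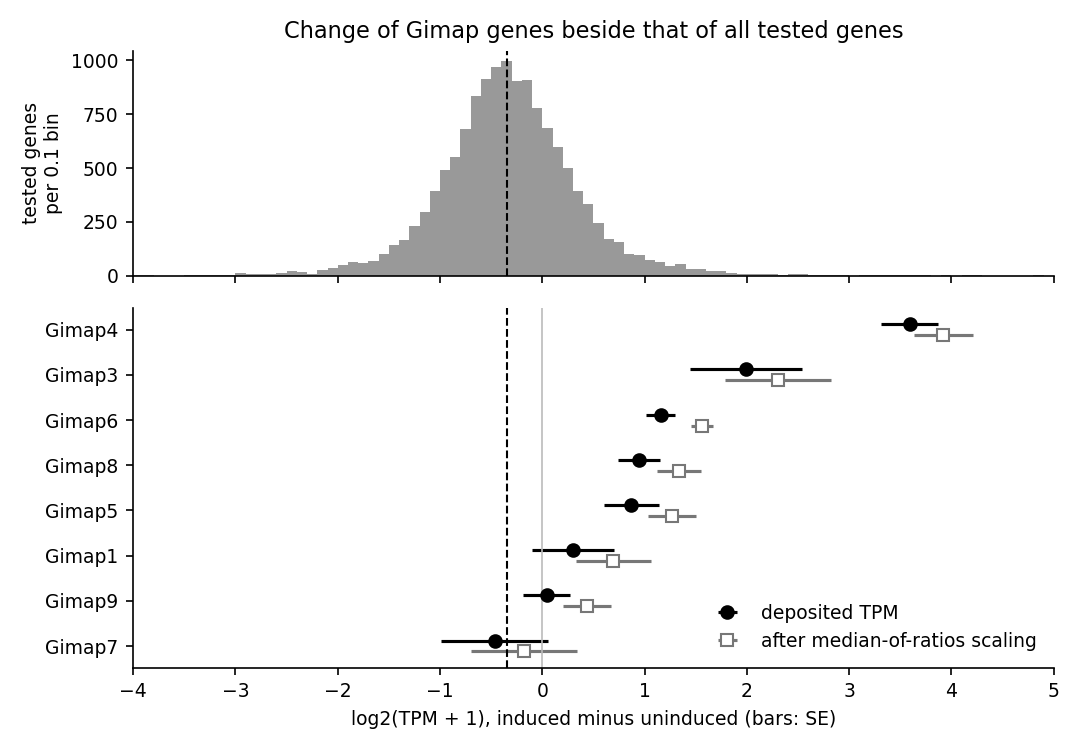
Difference in log2(TPM + 1), induced minus uninduced, for the 8 Gimap genes with its SE on the deposited scale (filled) and after median-of-ratios scaling (open), under a histogram of the same difference for all tested genes. The dashed line is the median of all genes, -0.35; 5 genes beyond the axis are not drawn. Gimap4 is at 3.59 and Gimap7 at -0.47.

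Relative to the median of all tested genes, the difference was 3.94 log2 units for Gimap4, 2.34 for Gimap3, 1.504 for Gimap6, 1.29 for Gimap8, 1.21 for Gimap5, 0.64 for Gimap1, 0.39 for Gimap9 and -0.12 for Gimap7. The order of levels in uninduced cells was Gimap6, Gimap5, Gimap1, Gimap8, Gimap9, Gimap7, Gimap3 and Gimap4. Only the steps below Gimap6 and below Gimap9 separated neighbours in this order without overlap of their libraries. In induced cells the order was Gimap6, Gimap5, Gimap8, Gimap1, Gimap4, Gimap9, Gimap3 and Gimap7, and each of Gimap8, Gimap1 and Gimap4 overlapped the next. The steps from Gimap6 to Gimap5, Gimap5 to Gimap8, Gimap9 to Gimap3 and Gimap3 to Gimap7 had no overlap. The members thus ranged from 2.35 to 130.6 TPM in uninduced and from 2.63 to 292 TPM in induced cells.

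The values of Gimap1 and Gimap5 stand beside a further gene that overlaps them. Gm28053 (ENSMUSG00000098715) is annotated from Gimap7 to Gimap5 on the same strand, at chr6:48718607-48752644 (GRCm38), and its exons overlap those of Gimap7, Gimap1 and Gimap5. Of its 989 exonic bases, 198 are shared with Gimap1, 153 with Gimap5 and 81 with Gimap7. Gm28053 was at 13.5, 0 and 42.9 TPM without induction and 6.01, 0.398 and 2.66 TPM with it. In uninduced replicate 2, where Gm28053 was listed at 0, Gimap1 and Gimap5 had their highest uninduced values. In uninduced replicate 3, where Gm28053 was at 42.9 TPM, Gimap5 had its lowest value of all 6 libraries.

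Gimap1 and Gimap5 together were at 62.9, 135 and 55.5 TPM without induction and 130.1, 112 and 128 TPM with it. With Gm28053 added, the sums were 76.3, 135 and 98.5 TPM and 136, 112 and 130.6 TPM, and the groups overlapped. Gimap5 with Gm28053 gave 54.1, 65.7 and 72.4 TPM and 91.3, 82.7 and 73.2 TPM. These groups barely separated, since uninduced replicate 3 was at 72.4 and induced replicate 3 at 73.2 TPM. The mean was 1.29 times higher in induced cells, where Gimap5 alone was 1.75 times higher. Gimap1 with Gm28053 gave 35.7, 69.4 and 69.04 TPM and 50.8, 30.1 and 60.1 TPM. These groups overlapped, and the induced mean was 0.810 times the uninduced one, where for Gimap1 alone it was 1.12 times. Gm28053 itself was not called (limma adjusted p 0.472, log2 difference -1.38, SE 1.16). TPM is corrected for length, and the same Gm28053 value enters each sum, so the sums do not correct either gene for reads assigned to Gm28053. The part of the assignment of reads between these genes in the values of Gimap1 and Gimap5 was not tested. The sum of the 8 Gimap genes and Gm28053 was 285, 329 and 289 TPM without induction and 562, 543 and 576 TPM with it, without overlap.

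**Figure D3:**
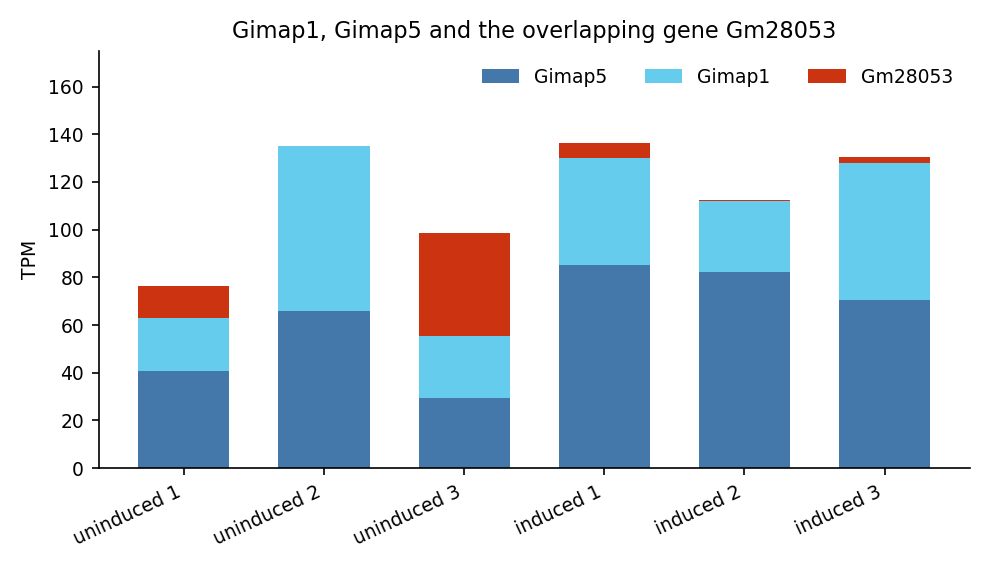
TPM of Gimap5 (dark blue), Gimap1 (light blue) and the overlapping gene Gm28053 (red), stacked for each of the 6 libraries. The red part is largest in uninduced replicate 3, at 42.9 TPM, and absent in uninduced replicate 2, where the 3 genes sum to 135 TPM.

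Gimap1os (ENSMUSG00000044867), a long noncoding RNA gene on the strand opposite to Gimap1 (chr6:48738346-48741444), was singled out after its values were seen. It was at 10.4, 12.2 and 8.26 TPM without induction and 33.6, 14.9 and 27.2 TPM with it. All induced values were above all uninduced ones, and it was called higher by 1.16 log2 units (SE 0.32, limma adjusted p 0.0443). The call is narrow: leaving out any library but induced replicate 2 gave adjusted p-values of 0.0721 to 0.153, and it was also lost with replicate numbers as a block (0.0751), without the variance trend (0.0886) and without the expression minimum (0.126). Of the 3099 exonic bases of Gimap1os, 1107 lie opposite exons of Gimap1. The library kit keeps strand, but whether the counting used it is not given in the sources used here, so reads of Gimap1 and Gimap1os may not have been told apart. The other long noncoding RNA gene inside the cluster, 4833403J16Rik, was at 8.88, 8.65 and 15.3 TPM without induction and 12.0, 14.03 and 18.3 TPM with it, and was not called (limma adjusted p 0.393).

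The Gimap genes fill chr6:48647234-48770851 (GRCm38, GENCODE M21), a span of 124 kb, in the order Gimap8, Gimap9, Gimap4, Gimap6, Gimap7, Gimap1, Gimap5 and Gimap3; Gimap6 and Gimap3 are on the minus strand. Members with separate and with overlapping groups are interspersed along it: Gimap9 lies between Gimap8 and Gimap4, and Gimap7 and Gimap1 between Gimap6 and Gimap5. The 10 genes on each side that RefSeq lists as protein-coding were not used to choose the members; the deposited table gives Gm5111 and Gm7932 among them as noncoding RNA genes. Of these 20 neighbours 10 reached the expression minimum; 1 was called higher and 0 lower, and at an unadjusted limma p under 0.05 there were 1 and 1. Over all tested genes 27.9% passed this unadjusted threshold, 3.73% higher and 24.2% lower, and 1.29% were called higher and 10.2% lower. The median difference of the 10 was -0.11 log2 units, beside -0.35 for all tested genes.

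The neighbour called higher was Zfp467, a zinc finger gene, whose coordinates begin at -219.5 kb relative to the start of the cluster. It rose from 14.6, 8.27 and 10.4 TPM to 34.2, 21.6 and 44.1 TPM, a difference of 1.49 log2 units (SE 0.31, limma adjusted p 0.0163). The call was lost without uninduced replicate 2 (adjusted p 0.0549), induced replicate 1 (0.0594) or induced replicate 3 (0.0595). The nearest expressed neighbour before the cluster, the zinc finger gene Zfp775, was at 1.48, 1.77 and 1.47 TPM without induction and 1.54, 1.31 and 1.76 TPM with it (limma adjusted p 0.979). The nearest one after it, the membrane protein gene Tmem176b, was at 182, 231 and 186 TPM and 134, 173 and 173 TPM (limma adjusted p 0.257). Neither was called, and the log2 difference of both, -0.02 for Zfp775 and -0.32 for Tmem176b, turned positive after median-of-ratios scaling, at 0.22 and 0.090.

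**Figure D4:**
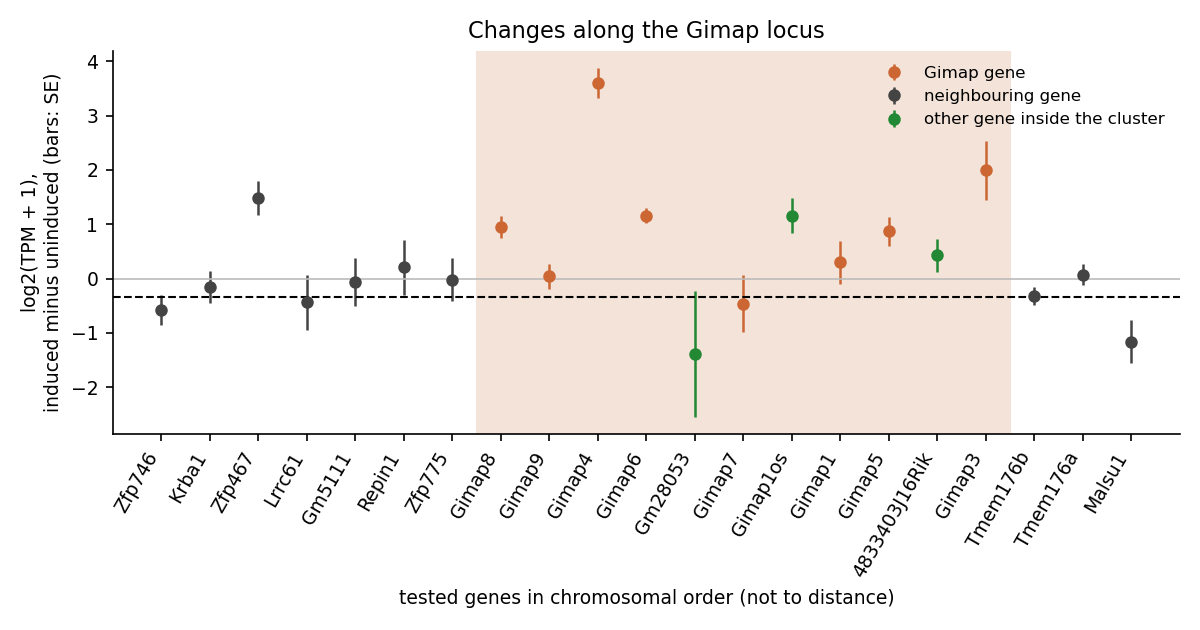
Difference in log2(TPM + 1), induced minus uninduced, with its SE for the 21 tested genes of the locus in chromosomal order; Gimap genes are orange, neighbours black and other genes inside the cluster green, and the shaded part is the cluster. The dashed line is the median of all tested genes, -0.35. Among the neighbours Zfp467 stands highest, at 1.49, and Gimap4 is the highest of all, at 3.59.

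Promoters of the members were searched for binding motifs of the RUNX family, whose DNA-binding domain the fusion keeps, and of ETS and GATA factors. RefSeq promoters (GRCm38.p6) run from 250 bases before to 50 bases after a transcript start, and 9 of them were found for the 8 genes. The RUNX letters TGTGGT or TGCGGT, on either strand, occurred in 4 of the 9, those of Gimap1, Gimap4, Gimap7 and Gimap9, and in 22.4% of all 32817 promoters. The ETS letters GGAAGT occurred in those of Gimap1, Gimap5, Gimap6 and Gimap9, and in 23.8% of all promoters. The GATA letters AGATAA occurred in 0 of the 9 and in 11.2% of all. The bases before the annotated starts are shown for the member furthest apart between the groups (Gimap4, chr6:48684328-48684548, plus strand), the most abundant member (Gimap6, chr6:48708245-48708494, minus strand), Gimap8 (chr6:48646984-48647185, plus strand) and a member whose groups covered the same range (Gimap9, chr6:48675885-48676120, plus strand). Each stretch ends before the first transcribed base annotated there. Capitals mark RUNX matches in Gimap4 and Gimap9 and an ETS match in Gimap6; Gimap8 has no match, and both ETS matches of Gimap9 lie outside the bases shown.
Gimap4: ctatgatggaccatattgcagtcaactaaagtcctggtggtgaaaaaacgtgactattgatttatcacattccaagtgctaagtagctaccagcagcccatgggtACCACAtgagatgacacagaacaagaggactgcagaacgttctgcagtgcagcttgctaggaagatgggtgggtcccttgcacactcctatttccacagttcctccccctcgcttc
Gimap6: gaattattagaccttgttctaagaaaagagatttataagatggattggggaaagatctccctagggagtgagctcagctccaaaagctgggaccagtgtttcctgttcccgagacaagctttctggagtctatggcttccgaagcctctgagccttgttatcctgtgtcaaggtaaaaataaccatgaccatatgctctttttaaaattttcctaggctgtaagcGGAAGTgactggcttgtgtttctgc
Gimap8: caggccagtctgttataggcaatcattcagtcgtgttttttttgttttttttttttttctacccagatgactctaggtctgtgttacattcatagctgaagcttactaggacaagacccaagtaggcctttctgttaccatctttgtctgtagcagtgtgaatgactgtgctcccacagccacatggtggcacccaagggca
Gimap9: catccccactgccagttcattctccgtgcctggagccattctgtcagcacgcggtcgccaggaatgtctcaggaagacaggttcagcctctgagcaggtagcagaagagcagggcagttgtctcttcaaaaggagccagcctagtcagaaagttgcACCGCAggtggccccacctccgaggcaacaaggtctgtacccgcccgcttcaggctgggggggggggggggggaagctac
Counted from the RefSeq transcript start, the match in Gimap4 begins at -145 and the one in Gimap9 at -94, both on the opposite strand, and the ETS match in Gimap6 begins at -25. A match shows only that the letters are there, and no binding was measured.

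Other GTPase families of immunity were compared next. Of 25 genes of the interferon-inducible IRG and GBP families 19 were tested, and 3 were called higher and 0 lower; at an unadjusted limma p under 0.05, 7 were higher and 0 lower. Over all tested genes 1.29% were called higher and 10.2% lower, and 3.73% and 24.2% passed unadjusted. With median-of-ratios scaling 5 of the 19 were called higher and 0 lower. Their median log2 difference was 0.49, beside -0.35 for all tested genes. Gbp2b rose from 2.99, 1.18 and 1.63 TPM to 11.4, 10.07 and 11.7 TPM (log2 difference 2.09, SE 0.35, limma adjusted p 0.0061). Gbp8 rose from 2.71 ± 1.37 to 11.01 ± 4.01 TPM (SD, n = 3 per group, with an adjusted p of 0.0218 from limma), and Gbp9 from 4.35 ± 2.14 to 13.6 ± 3.37 TPM (SD, n = 3 per group, with an adjusted p of 0.0268 from limma). GBP genes are close copies of each other, so their split is uncertain too. The Gbp8 and Gbp9 calls were lost without any of several libraries, among them induced replicate 2 (adjusted p 0.0684 and 0.112).

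The septins, filament-forming GTPases that are structurally related to Gimap proteins, were compared as a further GTPase family. Of 13 septin genes 8 were tested; 0 were called higher and 1, Sept6, lower, from 43.7 ± 1.30 to 26.5 ± 4.07 TPM (SD, n = 3 each, log2 difference -0.71, limma adjusted p 0.0452). At an unadjusted limma p under 0.05 there were 0 higher and 2 lower. Among all tested genes 10.2% were called lower and 24.2% were lower unadjusted. The median log2 difference of the 8 was -0.21 (0.18 when scaled), beside -0.35 for all tested genes. Sept6 was not called with median-of-ratios scaling (-0.31, adjusted p 0.355) or when any single library was left out (0.0572 to 0.144). The difference between the lists was not tested.

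Genes whose proteins are linked to Gimap proteins were counted as well. Of 21 BCL2 family genes 13 were tested, and limma called 0, also with median-of-ratios scaling, where 11.5% and 5.98% of all tested genes were called. At an unadjusted limma p under 0.05, 2 were higher and 1 lower (3.73% and 24.2% over all tested genes). The median log2 difference of the 13 was -0.18 (0.19 when scaled), beside -0.35 for all tested genes. Bcl2, which guards against apoptosis, was at 10.7, 8.30 and 12.9 TPM without induction and 6.79, 6.02 and 8.26 TPM with it (limma adjusted p 0.272). Mcl1, a survival factor of stem cells, was at 91.6 ± 6.40 and 98.8 ± 2.87 TPM (SD, n = 3 per group, with an adjusted p of 0.678 from limma). Bcl2l1 was at 22.5 ± 12.8 and 16.9 ± 5.49 TPM, and the pro-apoptotic Bcl2l11 at 3.42 ± 1.06 and 3.17 ± 1.54 TPM (SD, n = 3 each), with limma adjusted p-values of 0.69 and 0.878. Only Mcl1 among these 4 was called under any alternative, after rescaling to nuclear protein-coding genes (0.54, adjusted p 0.0354).

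Of 18 genes of the ATG8 conjugation system of autophagy 17 were tested, with 2 called higher and 0 lower (4 and 0 with median-of-ratios scaling). At an unadjusted limma p under 0.05, 3 were higher and 1 lower. Among all tested genes 1.29% were called higher and 10.2% lower, 2.88% and 3.10% with the scaling, and 3.73% and 24.2% passed unadjusted. The median log2 difference of the list was -0.0048 (0.34 when scaled), beside -0.35 for all tested genes. Sqstm1, an autophagy receptor, rose from 57.5, 58.0 and 41.8 TPM to 83.9, 80.7 and 88.5 TPM (log2 difference 0.69, SE 0.19, limma adjusted p 0.0414). Atg10, a conjugating enzyme, rose from 1.37 ± 0.845 to 6.44 ± 1.54 TPM (SD, n = 3 per group, with an adjusted p of 0.0265 from limma). Without any single library the adjusted p of Sqstm1 was 0.058 to 0.113, and Atg10 was lost without any library but uninduced replicate 1 (0.055 to 0.0974). Gabarapl2, the partner of Gimap6, was at 14.5, 19.4 and 10.05 TPM without induction and 19.1, 14.9 and 25.1 TPM with it, and its groups overlapped (limma adjusted p 0.394).

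Because Gimap genes are markers of mature lymphocytes and are also expressed in endothelium, the markers of both were examined beside them. Of 32 T and NK cell markers 23 were listed at 0 in all 6 libraries, Cd3e and Cd8a among them, and Cd4 was at most 0.881 TPM. Their summed level was 38.7 to 65.3 TPM in uninduced and 4.67 to 20.9 TPM in induced libraries. Of all tested genes 1.29% were called higher and 10.2% lower (3.73% and 24.2% unadjusted). Only 4 of the T and NK cell markers could be tested, with 0 called higher and 2 lower (0 and 2 at an unadjusted limma p under 0.05 too). These were Lat, a T-cell and platelet adaptor (31.4 ± 5.44 to 4.72 ± 4.12 TPM, SD, n = 3 per group, with an adjusted p of 0.00528 from limma), and Nkg7, a cytotoxic granule protein. Nkg7 was at 6.21, 15.8 and 5.84 TPM in the uninduced libraries and listed at 0 in all 3 induced ones (limma adjusted p 0.00378). The T-cell receptor chain gene Cd247, singled out after its values were seen, was at 4.77, 2.96 and 2.70 TPM without induction and 1.72, 1.98 and 10.3 TPM with it, so not every marker was lower in each induced library. The part of these cells in the Gimap values was not tested.

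Of 20 B-lineage markers, Ms4a1 was listed at 0 in all libraries, 4 were tested, and Igkc alone was called, lower (4.91 ± 3.28 to 0.468 ± 0.498 TPM, SD, n = 3 per group, with an adjusted p of 0.0498 from limma), not called with median-of-ratios scaling (0.113) or without any library but uninduced replicate 2 (0.0741 to 0.16). At an unadjusted limma p under 0.05, 0 were higher and 2 lower. Among all tested genes 1.29% were called higher and 10.2% lower, and 3.73% and 24.2% passed unadjusted. The summed level of the B-lineage markers was 20.1 to 27.5 TPM in uninduced and 8.15 to 17.5 TPM in induced libraries. Of 20 endothelial markers 7 were tested and limma called 0 (also 0 at an unadjusted p under 0.05). The endothelial cadherin Cdh5 was at 0.826 TPM in uninduced replicate 2 and listed at 0 in the other 5 libraries, and the summed level was 88.2 to 115 TPM and 95.6 to 110.7 TPM. Of 25 genes of early lymphoid priming 15 were tested; Ltb, a lymphotoxin, rose from 30.6, 50.2 and 47.04 TPM to 119.8, 112 and 112 TPM (limma adjusted p 0.00408). Smarca4, a chromatin remodeller, fell from 77.2 ± 10.6 to 38.4 ± 7.74 TPM (SD, n = 3 per group, with an adjusted p of 0.016 from limma), and was no longer called with median-of-ratios scaling (0.0853), without uninduced replicate 1 (0.0574) and without induced replicate 2 (0.0637). These 2 were the calls of that list, and with the scaling 2 were higher and 0 lower, beside 2.88% and 3.10% of all tested genes. Unadjusted, 2 genes of the list were higher and 5 lower.

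Markers of other blood lineages that a stem cell sort could carry along were counted too. Of 18 erythroid and platelet genes 16 were tested, with 7 called higher and 3 lower (7 and 1 when scaled by median of ratios). At an unadjusted limma p under 0.05, 7 were higher and 5 lower. Among all tested genes 1.29% were called higher and 10.2% lower, 2.88% and 3.10% with the scaling, and 3.73% and 24.2% passed unadjusted. The haemoglobin gene Hbb-bs rose from 23.4, 9.48 and 12.7 TPM to 183, 153 and 196 TPM (limma adjusted p 2.55e-04), and Hba-a1 from 12.8 ± 5.94 to 98.5 ± 14.9 TPM (SD, n = 3 per group, with an adjusted p of 8.34e-04 from limma). Gp9, a platelet glycoprotein, fell from 16.7 ± 6.34 to 2.96 ± 2.51 TPM (SD, n = 3 per group, with an adjusted p of 0.0187 from limma), a call lost after that scaling (0.0623) and without uninduced replicate 2 (0.0724). The platelet chemokine genes differed from Gp9: Pf4 rose from 22.1, 41.3 and 21.6 TPM to 54.2, 57.4 and 70.5 TPM (limma adjusted p 0.0253), and Ppbp from 0.876, 0 and 0 TPM to 11.9, 14.6 and 6.64 TPM (limma adjusted p 0.00343). The Pf4 call was lost without any library but uninduced replicate 2 (0.0598 to 0.0823). Of the erythroid genes, Car2, a carbonic anhydrase, fell from 384 ± 38.7 to 261 ± 23.0 TPM (SD, n = 3 per group, with an adjusted p of 0.0372 from limma), a call lost with that scaling (0.438) and without any library but uninduced replicate 3 (0.0745 to 0.137). The erythropoietin receptor gene Epor, singled out after its values were seen, was at 3.42, 2.10 and 4.57 TPM without induction and 0, 0 and 1.45 TPM with it (limma adjusted p 0.0638). The summed level of the list was 597 to 729 TPM in uninduced and 798 to 908 TPM in induced libraries, and its part in the values of the Gimap genes was not tested. Of 11 tested myeloid markers 1 was called higher and 1 lower (3 and 0 after scaling, 3 and 5 unadjusted), with summed levels of 307 to 378 and 307 to 345 TPM. Of 17 tested stem cell genes 4 were called higher and 3 lower (6 and 1 after scaling, 6 and 4 unadjusted), with summed levels of 834 to 1075 and 930.4 to 1043 TPM.

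**Figure D5:**
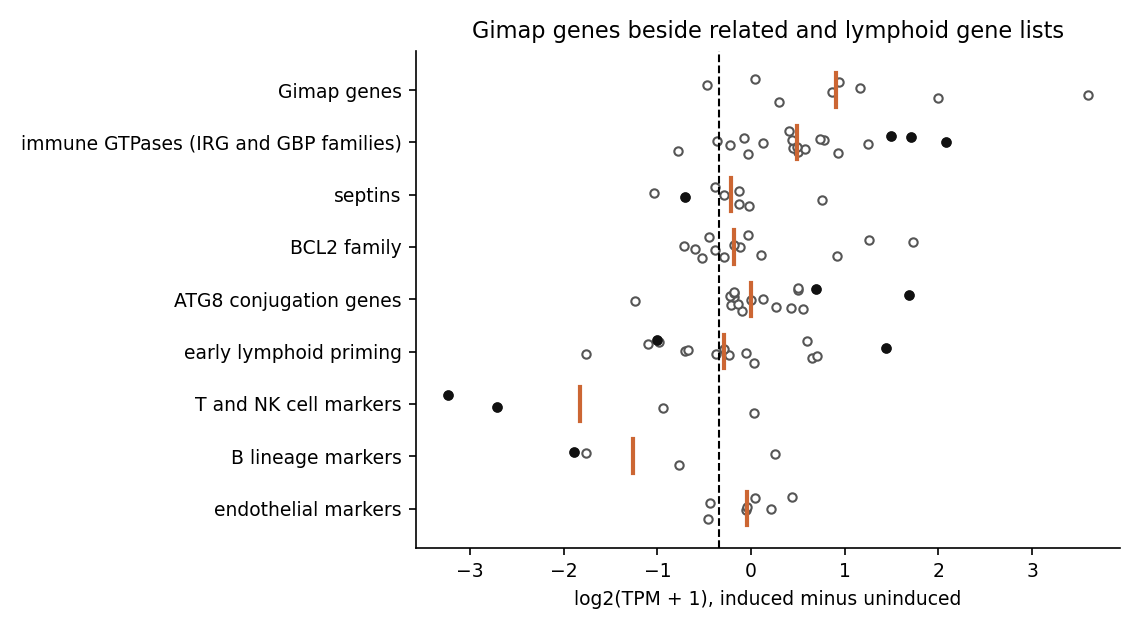
Difference in log2(TPM + 1), induced minus uninduced, of each tested gene in the Gimap family and 8 comparison lists; filled points are genes called by limma (calls are not shown for the Gimap genes), the orange bar is the list's median and the dashed line the median of all tested genes, -0.35. The Gimap median is 0.91 and that of the IRG and GBP genes 0.49, and the T and NK cell median is -1.83.

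The genes outside the family whose values ran closest to the members' mean profile over the 6 libraries were Mocs1, Col4a2, Mllt3, Neat1 and Phf1. Likeness was the root mean square difference between centred log2(TPM + 1) profiles, and it was 0.0612 for Mocs1, 0.0965 for Col4a2, 0.102 for Mllt3, 0.116 for Neat1 and 0.119 for Phf1. Mllt3, a transcription elongation factor known to maintain stem cells, was at 47.5, 49.3 and 36.9 TPM without induction and 103, 94.4 and 104 TPM with it. Col4a2, a basement membrane collagen, was at 22.2, 27.7 and 20.3 TPM and 46.6, 42.3 and 44.5 TPM. As these profiles rest on 6 libraries in 2 groups, the choice of genes depended on single libraries: 1 of the 5 was still among the 5 closest without uninduced replicate 1, and 2 were without uninduced replicate 3. With a pseudocount of 5 it was 1.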

How the data were processed

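The authors deposited a single table of TPM values, with a column per library and a row per gene. The submitters' processing notes name bcl2fastq, HISAT2, StringTie and DESeq2 and the build GRCm38, without role or version, and the annotation release and read filters are not given in the sources used here. Each column reached 999976 to 999993 TPM over its 60496 rows, so rows were summed per gene ID (55471 IDs); no Gimap gene had a repeated row. TPM keeps no depth. The GC content in percent in the deposited table, 42.8 to 51.01 for the Gimap genes, entered no test. Septin symbols had become dates and were matched by gene ID.

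Libraries were grouped by title. Tests used limma 3.58.1 in R 4.3.3 on log2(TPM + 1), with a variance trend, two-sided, adjusted by Benjamini-Hochberg over the 13470 genes that averaged 1 TPM or more. No label says that libraries came from separate mice, so p-values measure the spread between libraries only. The Gimap genes, lists and tests were chosen with earlier results of these data known. Named genes were all members, called neighbours and the nearest expressed ones, up to 4 called genes per list and direction (for the myeloid, erythroid and platelet, and stem cell lists some are only counted), fixed markers and partners (some of these genes are not reported here), and the 5 nearest profiles. The fit was tested on simulated data, but no outcome is reported here, so no error rate of the calls is given by it. Alternatives were other pseudocounts, filters and scalings, the highest row per ID, no variance trend, a replicate block and the removal of single libraries. Sequences come from RefSeq (GRCm38.p6) and GENCODE M21, which is on the files' build; promoter and identity counts used Biopython 1.88.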

Additional observations from a re-analysis of the deposited data

How the results depend on the processing

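The median log2 difference of the 8 Gimap genes, 0.91 on the deposited scale, was 1.30 after median-of-ratios scaling, 1.29 after quantile normalization and 1.33 after rescaling to nuclear protein-coding genes. It was 0.82 to 1.04 when single libraries were left out, and 0.94 over the 7 genes that averaged 5 TPM or more, which removes Gimap7. Genes called higher numbered 174, but 96 without the filter, 388 with median-of-ratios scaling, 374 with quantile normalization, 465 after rescaling, 108 without the variance trend and 77 to 131 without a library. Genes called lower numbered 1375, but 656, 418, 440, 479 and 659 in the same settings, 782 with the replicate block and 527 to 1146 without a library. The 1 neighbour called higher became 0 without the filter and without the variance trend, and 0 to 1 without a library. Of the comparison lists, 18 genes were called higher, but 11 without the filter, 31 after rescaling and 11 to 15 without a library. The 11 called lower became 4 without the filter, 3 with quantile normalization, 3 with median-of-ratios scaling, 4 after rescaling, 3 without the variance trend, 7 with the replicate block and 5 to 8 without a library. The scalings remove the offset of -0.35 between the groups; otherwise the cause was not tested. Same-numbered libraries are not stated to be paired, and their deviations correlated at 0.0215, -0.0152 and 0.0172; with the replicate block 902 genes were called, 120 of them higher.

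Signs turned for genes that were not called. With median-of-ratios, quantile and nuclear protein-coding scaling, in this order, Zfp775 was at 0.22, 0.23 and 0.24, Tmem176b at 0.090, 0.069 and 0.12, Bcl2l1 at 0.095, 0.095 and 0.12, and Bcl2l11 at 0.20, 0.20 and 0.22. When a library was left out, Zfp775 ranged from -0.085 to 0.044, Bcl2l1 from -0.72 to 0.12 and Bcl2l11 from -0.40 to 0.10, and Tmem176a from -0.037 to 0.19.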
